A study of Mus musculus with 8 samples.

Results

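Cholesterol and fatty acids are built from the same acetyl units, and 35 genes of these routes and their control were followed here in T cells that had matured in mice with or without native insulin. The genes were chosen by symbol from 46625 gene names in the table of counts. The table lists symbols in capitals (HMGCS1, MSMO1, PMVK, LBR, FASN, ELOVL5, ELOVL6, SREBF1), and they are written here in the mouse form. They comprise 18 enzymes of sterol synthesis, 10 enzymes that make, elongate or desaturate fatty acids, 4 regulators and 3 genes of sterol transport. Filtering on low counts kept 34 of the 35. The desaturase gene Fads2 was removed, with counts of 0 to 10 in the 8 libraries.

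The libraries were prepared from 8F10 T cells, which carry a T cell receptor for an insulin peptide. CD45.2 bone marrow stem cells of 8F10 donors deficient in the TCR alpha chain, stripped of T and B cells, were given to CD45.1 hosts. NOD hosts make native insulin, whereas B16A hosts are NOD mice whose insulin has an altered B chain residue. All samples are labelled as strain NOD/ShiLtJ. Irradiation was not lethal, so a host kept cells of its own, and T cells were sorted by flow cytometry from inguinal lymph nodes at 6 weeks. Each host is represented by 4 libraries, and the labels give 4 batches, each with 1 library of each host. Age, sex and the number of animals behind a library were not given in the sources used here, and the p-values below therefore reflect variation among libraries that may be partly technical.

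Sterol synthesis runs from acetoacetyl-CoA through mevalonate and squalene to lanosterol and then, in many small steps, to cholesterol. Its enzymes are switched on together by the membrane-bound factor SREBP-2, which the escort protein Scap carries from the endoplasmic reticulum when sterols are low and which Insig proteins hold back when sterols are high. SREBP-1 drives the fatty acid arm, and the LXR receptors sense oxysterols and turn on the exporters Abca1 and Abcg1. Resting T cells need little of either arm, and both are known to be raised when T cells are activated and divide.

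Promoter sequence shows what many of the members share. RefSeq promoters of build GRCm38.p6 were found for 27 of the 35 genes. Within the 250 bases before the start, the pentamer CCAAT, which the factor NF-Y can bind, was present on either strand for 14 of 15 sterol enzymes and 3 of 7 fatty acid enzymes, against 37.5% of 27025 genes and 33.8% of 32851 single promoters. A SREBP-type motif spelled TCACNCCAC was present for 1 of the 27 genes, Hmgcs1, against 1.22% of 27025 genes. A gene with several starts was counted when any of them held the motif. These are letter matches and do not show binding. Bases 180 to 31 before the start are given for 4 members whose difference between hosts had a single direction in every batch. They are 3 sterol enzymes that were higher in NOD libraries and Fasn, which was lower. Other members with a single direction are not printed, among them Elovl6, with 0 CCAAT in its 250 bases, and Elovl5 and Lbr, with 2 each. For Pmvk the upstream start was used, and the other listed start has 0 CCAAT in its 250 bases. Capitals mark CCAAT or its reverse complement ATTGG and, in Hmgcs1 alone, the motif TCACNCCAC as TCACCCCAC. In Fasn a CCAAT and an ATTGG overlap.
Hmgcs1, chr13:119690171-119690320, plus strand: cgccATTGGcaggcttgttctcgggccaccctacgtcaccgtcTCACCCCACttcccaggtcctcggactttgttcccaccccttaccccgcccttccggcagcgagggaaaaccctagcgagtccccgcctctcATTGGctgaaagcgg
Msmo1, chr8:64733609-64733758, minus strand: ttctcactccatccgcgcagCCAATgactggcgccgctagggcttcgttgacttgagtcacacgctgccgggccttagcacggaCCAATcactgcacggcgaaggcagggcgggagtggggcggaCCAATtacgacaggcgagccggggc
Pmvk, chr3:89454361-89454510, plus strand: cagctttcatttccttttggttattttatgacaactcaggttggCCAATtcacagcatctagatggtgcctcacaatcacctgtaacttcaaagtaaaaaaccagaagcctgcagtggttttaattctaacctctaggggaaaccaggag
Fasn, chr11:120824578-120824727, minus strand: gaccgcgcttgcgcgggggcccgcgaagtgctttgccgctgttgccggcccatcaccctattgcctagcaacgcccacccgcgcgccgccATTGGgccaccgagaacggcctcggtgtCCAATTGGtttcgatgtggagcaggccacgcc

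Total counts were 4896593 to 6137666 per library in batches 1 to 3 and 28301805 and 28094237 in batch 4. The batch 4 libraries detected 19751 and 20723 genes, against 29729 to 33175 in the others. Both lay above all 6 other libraries for 13 of 34 tested members, below them for 9 and neither for 12. Among all tested genes both lay above for 31.8% and below for 40.4%, so this separation is not particular to the members. Values without batch 4 are given for many of the genes. Levels are in CPM, the count of a gene relative to a library size adjusted by edgeR's TMM factors. The summed level of 6 T cell markers (Cd4, Cd3e, Cd3d, Cd3g, Trbc1 and Trac) was 3994 to 11710 CPM, highest in batch 4. Cd4 itself stood at 1026 to 1204 CPM in batches 1 to 3. In batch 4 Cd4 was lower, at 917 CPM in the NOD and 699 CPM in the B16A library. The 4 B cell markers reached 1.59 to 8.79 CPM. Of the 2 CD8 markers Cd8b1 was at 62.6 to 120.2 CPM in batches 1 to 3 and Cd8a at 1.25 to 3.56 CPM. In batch 4 Cd8b1 was at 185.8 CPM in the NOD and 121.8 CPM in the B16A library, and Cd8a at 0 and 1.09 CPM. Inguinal nodes lie in fat, and 6 adipocyte markers summed to 5.74 to 26.7 CPM in NOD and 3.90 to 22.4 CPM in B16A libraries, with Adipoq, Plin1, Fabp4, Lep and Cidec at 0 in the NOD library of batch 4. The largest part of each sum was Lipe, at 12.4 to 17.1 CPM in batches 1 to 3. In batch 4 Lipe was at 5.74 CPM in the NOD and 3.69 CPM in the B16A library. A list of 6 macrophage and dendritic cell markers summed to 8.201 to 77.6 CPM in NOD and 6.79 to 45.8 CPM in B16A libraries. Stroma and endothelium markers, 5 in all, summed to 285 to 379 CPM in NOD and 270 to 422 CPM in B16A libraries. Nearly all of that was Pecam1, at 284 to 364 CPM in NOD and 269 to 403 CPM in B16A libraries. The part of these other cells in the results was not tested.

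None of the 34 tested members passed the threshold, an adjusted p under 0.05 over all 14607 tested genes, in the edgeR quasi-likelihood fit with the batch as a term. Across all genes the same fit called 0 genes, that is 0% in either direction. At an unadjusted p under 0.05 stood 2 members with higher and 3 with lower levels in NOD hosts, 5 of 34 in all, where the shares among all genes were 3.55% and 2.31% and 5.87% together. DESeq2 with the batch term called 0 members as well, against 0.185% of all genes (0.157% higher and 0.0274% lower). It gave no adjusted p for many members, Msmo1 and Elovl6 among them, so these could not be called there. Without batch 4 edgeR called 0 members, against 0.204% of all genes (0.159% higher and 0.0445% lower), and 6 members had an unadjusted p under 0.05, against 8.37% of all genes. The following values therefore describe these libraries and do not establish a difference between hosts.

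Most sterol enzymes had higher values in NOD hosts, while fatty acid enzymes were divided. No test compared the arms. Of the 18 sterol enzymes 16 had a positive log2 fold change (NOD minus B16A), with a median of 0.29, while over all tested genes 51.3% were positive with a median of 0.01. Of the 9 tested fatty acid enzymes 4 were positive and 5 negative, with a median of -0.07. The sterol median of the within-batch log2 ratios was 0.02, 0.09, 0.27 and 0.61 in batches 1 to 4, with 9, 11, 13 and 15 of the 18 enzymes higher in the NOD library. The fatty acid median was -0.06, -0.32, 0.07 and -0.04 in the same batches, while the median of all genes stayed between -0.03 and 0.05. Batch 4 carried much of the sterol difference: without it the median was 0.12 and 11 of 18 enzymes were positive, where all genes had a median of 0.02 with 52.5% positive. The 6 T cell activation markers (Cd69, Cd44, Il2ra, Myc, Nr4a1 and Egr1) summed to 5414 CPM in the NOD and 4171 CPM in the B16A library of batch 4, against 459 to 1035 CPM elsewhere. Nearly all of that was Cd69, at 4781 and 3734 CPM. Only Cd69 and Nr4a1, 2 of the 6, were above all other libraries in both, whereas Il2ra was below them, at 2.91 and 0.545 CPM. Their part in the sterol difference was not tested.

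**Figure D1:**
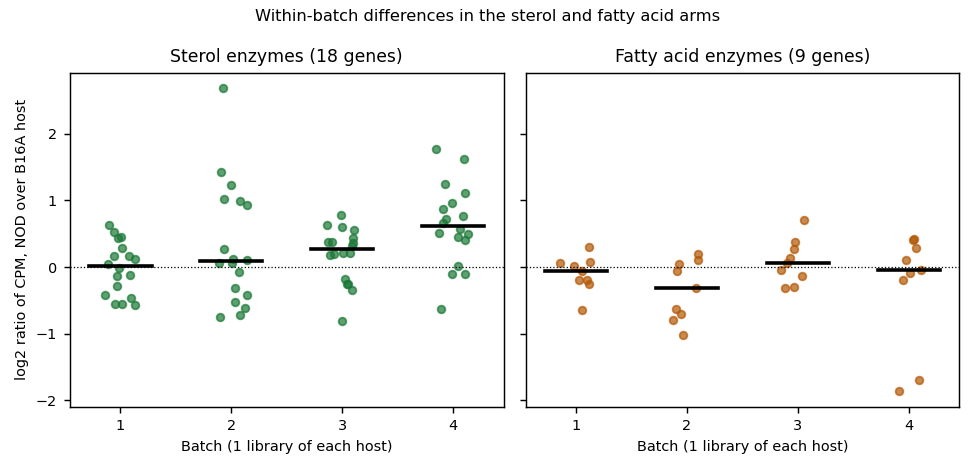
NOD to B16A ratio of CPM (log2 axis values) within each of the 4 batches for the 18 sterol enzymes (left) and the 9 tested fatty acid enzymes (right), 1 point per gene, jittered sideways, with the median as a black line. Each batch holds 1 library of each host, so a point has no error bar. The sterol medians are 0.02, 0.09, 0.27 and 0.61 and those of the fatty acid enzymes -0.06, -0.32, 0.07 and -0.04.

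Of the 34 tested members 9 differed in a single direction in all 4 batches, where 14.3% of all tested genes did. Higher in every NOD library than in its batch partner were Msmo1, Pmvk, Hmgcs1 and Elovl5 (7.43% of all genes). Lower in every batch were Elovl6, Fasn, Srebf1, Lbr and the low gene Scd1 (6.85% of all genes). The 4 NOD libraries lay below all 4 B16A libraries for a single member, Elovl6 (0.39% of all genes), and no member had its NOD libraries above all B16A libraries (0.205%).

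**Figure D2:**
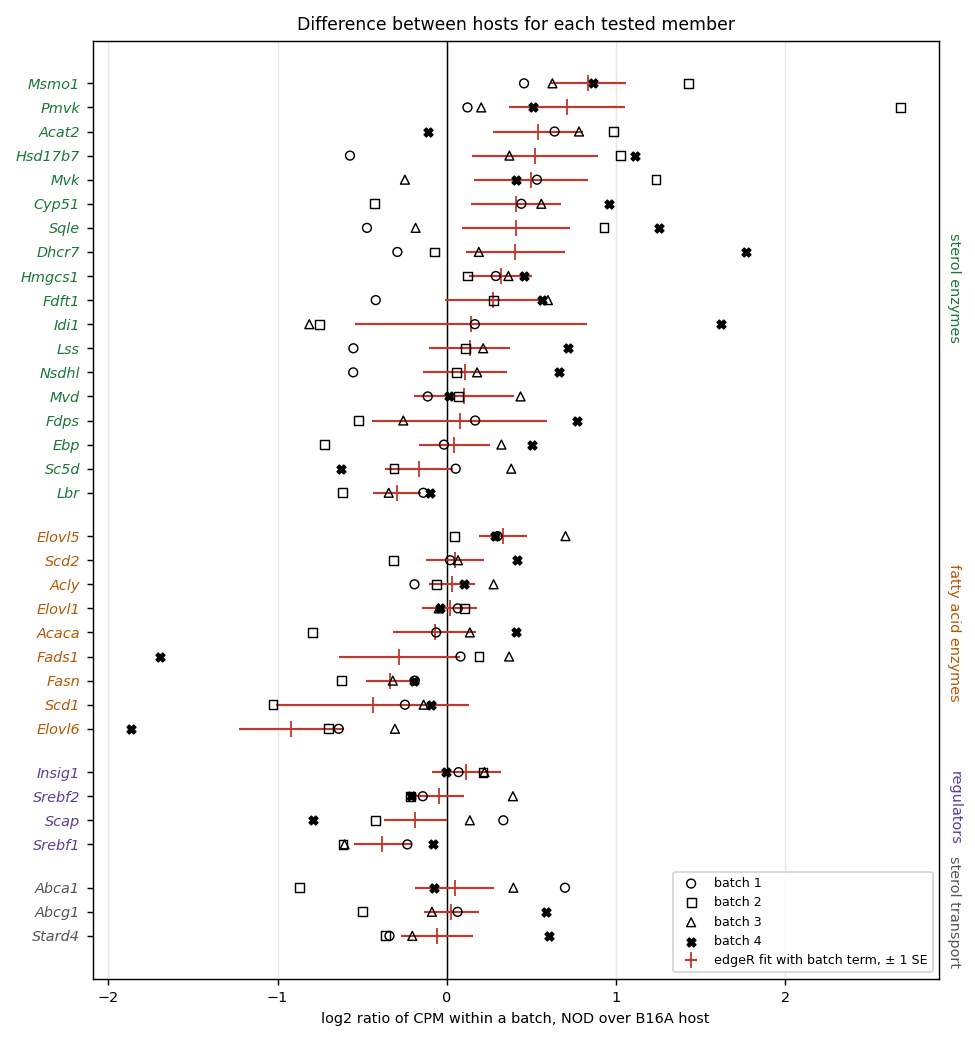
NOD to B16A ratio of CPM, as log2, for each of the 34 tested members, with open circles, squares and triangles for batches 1 to 3, black crosses for batch 4, and the red mark and bar for the edgeR fold change with 1 standard error. The sterol enzymes, listed from the highest fold change (Msmo1, 0.83) to the lowest (Lbr, -0.29), lie to the right of 0 for 16 of 18 genes, and 4 members are to the right and 5 to the left of 0 in every batch.

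Msmo1, the methylsterol monooxygenase that starts removal of the C4 methyl groups after lanosterol, had the smallest p among the members. The gene spans bases 64718139 to 64733792 of chromosome 8 in mm10, and its transcript shares no 50-base window with another gene. It stood at 15.3, 11.2, 13.6 and 69.5 CPM in NOD libraries of batches 1 to 4 and at 11.1, 4.06, 8.74 and 38.0 CPM in B16A libraries. In batches 1 to 3 all NOD values were above all B16A values, a pattern shown by 4.75% of all genes, and the batch 4 values of both hosts were above the rest. Its log2 fold change was 0.83 (SE 0.23, with edgeR at unadjusted p = 0.00233, adjusted p = 0.683). Over all 15 settings tried the fold change ranged from 0.67 to 0.95 and the adjusted p from 0.347 to 0.9999, with none given by DESeq2.

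Pmvk, the kinase that adds the next phosphate to phosphomevalonate, was also higher in the NOD library of every batch, but a single library set the size of its difference. It stood at 9.29, 8.04, 10.5 and 47.1 CPM in NOD and at 8.53, 1.09, 9.06 and 33.0 CPM in B16A libraries. The B16A library of batch 2 held 7 counts of Pmvk and its NOD partner 43, whereas the other batches differed by log2 ratios of 0.12, 0.20 and 0.51. The fold change was 0.71 (SE 0.34, with edgeR at unadjusted p = 0.0578, adjusted p = 0.858), 0.30 without batch 2 and 0.83 without batch 4.

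Hmgcs1, the cytosolic HMG-CoA synthase and a classical SREBP-2 target, whose promoter is printed above, differed by a small and even amount. NOD libraries held 20.1, 16.6, 23.4 and 54.3 CPM and B16A libraries 16.4, 15.3, 18.1 and 39.6 CPM. The groups overlapped, also within batches 1 to 3, and the 2 batch 4 values exceeded all others. The within-batch ratios were 0.29, 0.12, 0.36 and 0.46. The fold change was 0.32 (SE 0.19, with edgeR at unadjusted p = 0.114, adjusted p = 0.907), and it kept between 0.27 and 0.38 over the 15 settings. On the opposite strand Gm48342 shares 13.6% of its windows.

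The other enzymes up to farnesyl diphosphate gave positive but imprecise values. Acat2, which joins acetyl units at the entry, had a log2 fold change of 0.54 (standard error 0.27) and Mvk, mevalonate kinase, 0.50 (0.34). Mvd, which decarboxylates mevalonate diphosphate, had 0.10 (0.30). Idi1, the isopentenyl diphosphate isomerase, and Fdps, farnesyl diphosphate synthase, were near the floor of the data, at 0.629 to 2.96 CPM and 1.68 to 4.93 CPM, with fold changes of 0.14 (0.68) and 0.08 (0.52). Without batch 4 Idi1 and Fdps turned to -0.47 and -0.20, while Acat2 had 0.81, Mvk 0.54 and Mvd 0.14. These levels are uncertain for a further reason: 86.4% of the 50-base windows of the Fdps transcript, 45.9% of those of Acat2 and 21.3% of those of Idi1 also occur in transcripts of other genes, mainly Gm43738, Acat3 and Gm13502.

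In the squalene steps, Fdft1 (squalene synthase) had a fold change of 0.27 (0.28), Sqle (squalene epoxidase, a rate-controlling step) 0.41 (0.32) and Lss (lanosterol synthase) 0.14 (0.24). All 3 were lower in the NOD library in batch 1, by log2 ratios of -0.42, -0.47 and -0.55, and higher in batch 4, by 0.56, 1.25 and 0.72. Without batch 4 their fold changes were 0.16, 0.09 and -0.07. Fdft1 overlaps Ctsb on the opposite strand, which shares 19.9% of its windows.

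The enzymes after lanosterol differed among themselves. Cyp51, the lanosterol demethylase, had a fold change of 0.41 (standard error 0.27), Hsd17b7 and Nsdhl, which act in removal of the C4 methyl groups, 0.52 (0.37) and 0.11 (0.25), and Ebp, a sterol isomerase, 0.04 (0.21). Without batch 4 Cyp51 had 0.20 and Hsd17b7 0.27, and Nsdhl and Ebp turned to -0.11 and -0.14. Dhcr7, which makes cholesterol from its last precursor, had 0.40 (0.29). In batch 4 it stood at 31.4 CPM in the NOD and 9.09 CPM in the B16A library. Its other ratios were -0.29, -0.07 and 0.19, and without batch 4 the fold change was -0.06. Sc5d, the lathosterol desaturase, stood at 11.5, 12.5, 15.9 and 111 CPM in NOD and at 11.1, 15.6, 12.1 and 172 CPM in B16A libraries, a fold change of -0.16 (0.20) that was 0.04 without batch 4.

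Lbr was the sterol enzyme with the opposite direction in every batch. It encodes a sterol C14 reductase that is also the lamin B receptor, a protein that ties chromatin to the inner nuclear membrane. NOD libraries held 54.7, 38.1, 45.1 and 1831 CPM and B16A libraries 60.3, 58.7, 57.3 and 1965 CPM. In batches 1 to 3 all NOD values were below all B16A values, as for 5.44% of all genes. The fold change was -0.29 (SE 0.14, with edgeR at unadjusted p = 0.0547, adjusted p = 0.857), and -0.36 (SE 0.17) without batch 4. On the opposite strand Dnah14 shares 11.3% of its windows.

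**Figure D3:**
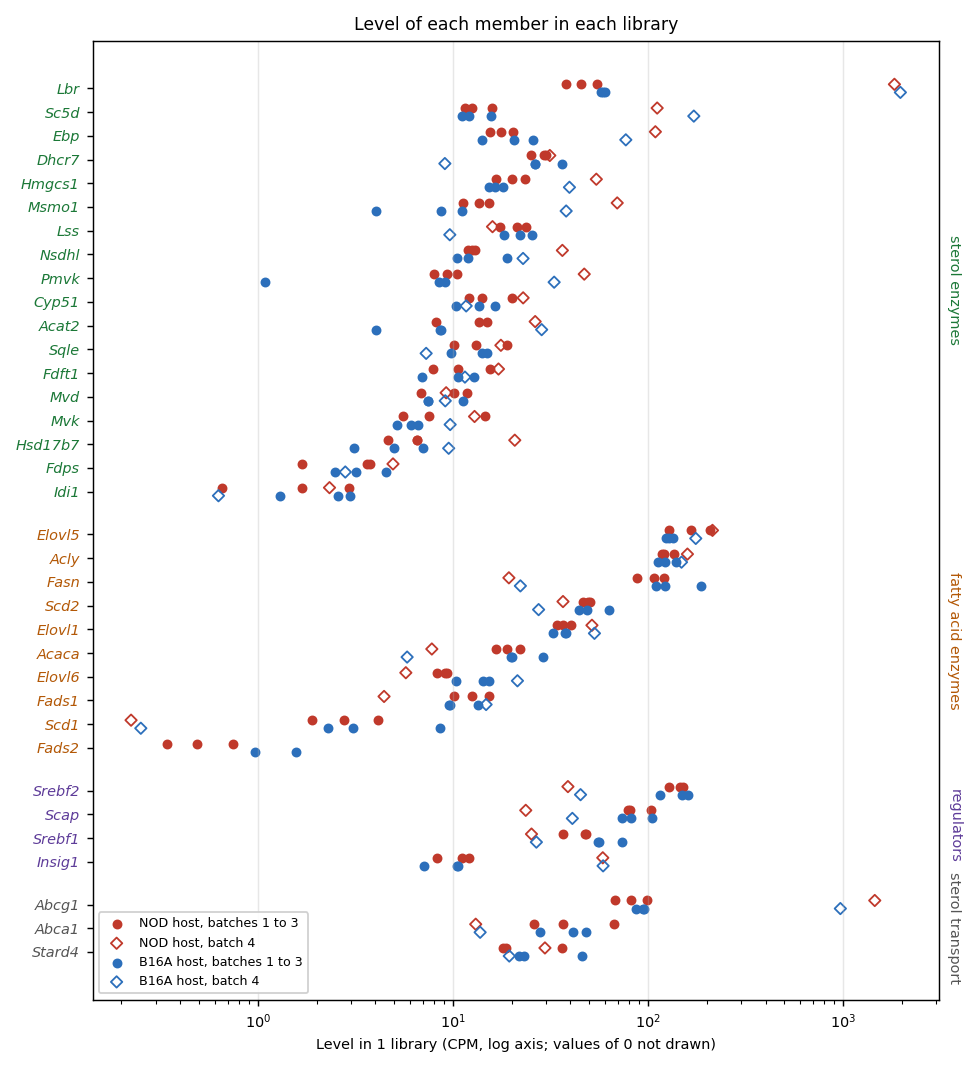
CPM of each of the 35 members in each of the 8 libraries on a log axis, red for NOD and blue for B16A hosts, filled circles for batches 1 to 3 and open diamonds for batch 4, with values of 0 left out and no error bars since each mark is 1 library. Lbr, Abcg1 and Sc5d have batch 4 levels far to the right of the other libraries, whereas Fasn, Srebf2, Scap and Abca1 lie to the left.

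The fatty acid arm had its smallest p-values for Elovl6 and Elovl5, elongases whose values differed in opposite directions between hosts. Elovl6 elongates saturated chains of palmitate length. The gene spans bases 129532355 to 129638495 of chromosome 3 in mm10. NOD libraries held 9.12, 9.35, 8.33 and 5.74 CPM and B16A libraries 14.3, 15.3, 10.4 and 21.4 CPM, so that the groups did not overlap. The log2 fold change was -0.92 (SE 0.31, with edgeR at unadjusted p = 0.0100, adjusted p = 0.751). Without batch 4 it was -0.56 (standard error 0.28, adjusted p = 0.625), because the largest ratio, -1.87, was in that batch.

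Elovl5 elongates polyunsaturated chains and had the highest level per kilobase of transcript among the fatty acid enzymes. NOD libraries held 166, 128, 208 and 214 CPM and B16A libraries 135, 123.4, 128 and 176 CPM. The NOD value was the higher in every batch, by log2 ratios of 0.30, 0.05, 0.70 and 0.28, although the groups overlapped. The fold change was 0.33 (SE 0.14, with edgeR at unadjusted p = 0.0334, adjusted p = 0.842), and 0.21 without batch 3. Elovl1, the elongase of very long saturated chains, had 0.02 (0.16).

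Fasn, the synthase that builds palmitate, was lower in the NOD library of each batch. It stood at 108, 121, 87.8 and 19.4 CPM in NOD and at 122.7, 187, 110 and 22.2 CPM in B16A libraries. The batch 2 libraries differed most, by a log2 ratio of -0.62, and the others by -0.19, -0.32 and -0.19. The fold change was -0.33 (SE 0.14, with edgeR at unadjusted p = 0.0354, adjusted p = 0.842), and -0.38 without batch 4.

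The enzymes that feed Fasn had smaller fold changes. Acly, the citrate lyase that supplies cytosolic acetyl-CoA to both arms, stood at 121, 117, 136 and 159 CPM in NOD and at 139, 122, 112 and 148 CPM in B16A libraries. The groups overlapped, with a fold change of 0.03 (standard error 0.14). Acaca, acetyl-CoA carboxylase, had -0.07 (0.25) and -0.24 without batch 4, and 52.6% of its windows also occur in Gm5182.

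Among the desaturases Scd2, the stearoyl-CoA desaturase isoform with the higher level here, had a fold change of 0.05 (0.17) and -0.08 without batch 4. Scd1 was low, at 1.89 to 8.58 CPM in batches 1 to 3 and 0.224 and 0.251 CPM in batch 4, with a fold change of -0.44 (0.57). The adipocyte marker Fabp4 ranged over 1.13 to 7.11 CPM in batches 1 to 3 and 0 to 0.0419 CPM in batch 4, and the part of adipocytes in the level of Scd1 was not tested. Fads1, the delta-5 desaturase, had -0.28 (0.36): it stood at 4.44 CPM in the NOD and 14.8 CPM in the B16A library of batch 4, while its ratios in batches 1 to 3 were 0.08, 0.19 and 0.37 and its fold change without batch 4 was 0.22.

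Of the regulators Srebf1, the gene of SREBP-1, was lower in NOD libraries in each batch. It stood at 47.5, 47.9, 36.4 and 25.3 CPM in NOD and at 55.9, 73.3, 55.5 and 26.8 CPM in B16A libraries. In batches 1 to 3 the groups did not overlap, as for 5.44% of all genes. The fold change was -0.38 (SE 0.17, with edgeR at unadjusted p = 0.0401, adjusted p = 0.844), and -0.48 without batch 4 (adjusted p = 0.316).

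Srebf2, the gene of SREBP-2, stood at 146, 128, 150 and 38.9 CPM in NOD and at 161, 149, 115 and 45.1 CPM in B16A libraries. Its groups overlapped, with a fold change of -0.05 (standard error 0.15). Scap stood at 103, 78.5, 80.7 and 23.6 CPM and at 81.8, 105, 73.5 and 40.9 CPM, a fold change of -0.19 (0.19) that was 0.02 without batch 4, and 5830462I19Rik shares 13.1% of its windows on the opposite strand. Insig1, itself an SREBP target, had 0.12 (0.20).

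Sterol transport genes showed no shared direction. Abca1, which exports cholesterol to lipid-poor apolipoprotein, stood at 67.3, 26.2, 36.6 and 13.1 CPM in NOD and at 41.4, 48.1, 27.8 and 13.8 CPM in B16A libraries, with a fold change of 0.05 (0.23). Abcg1, which exports it to mature lipoprotein, stood at 98.8, 67.3, 81.9 and 1452 CPM and at 94.5, 95.0, 87.1 and 967 CPM, with 0.03 (0.16) and -0.17 without batch 4. Stard4, a soluble sterol carrier, stood at 36.3, 17.95, 18.8 and 29.6 CPM and at 46.0, 23.1, 21.7 and 19.4 CPM, with -0.06 (0.21) and -0.30 without batch 4.

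Levels per kilobase of the longest coding transcript overlapped between the arms. In batches 1 to 3 sterol enzymes ran from 0.667 CPM per kilobase (Idi1) through 10.2 (Dhcr7) and 10.9 (Ebp) to 14.9 (Lbr). Among fatty acid enzymes Elovl5 stood at 53.2, Acly at 28.1, Elovl1 at 20.2 and Fasn at 12.2 CPM per kilobase, whereas Scd1 was at 0.784 and Fads2 at 0.218. The regulator genes Srebf2 and Scap, at 27.9 and 20.6 CPM per kilobase, were above all 18 sterol enzymes in batches 1 to 3. In batch 4 they stood at 8.27 and 7.64 CPM per kilobase, below Lbr (541), Ebp (53.3), Pmvk (33.6), Sc5d (29.6) and Msmo1 (26.3), among others.

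For most tested members batch 4 differed from the other batches by more than the hosts differed, though not for Elovl6, Sqle, Cyp51 and Mvd, whose log2 batch 4 differences were 0.04, -0.21, 0.21 and 0.04. Both batch 4 libraries lay above all 6 others for 9 of 18 sterol enzymes, where 31.8% of all tested genes did, and below them for 1 (40.4% of all genes). For the fatty acid enzymes these counts were 2 and 4 of 9, and for the regulators 1 and 3 of 4. The mean CPM of batch 4 was 36.2 times that of batches 1 to 3 for Lbr, 13.8 times for Abcg1 and 10.8 times for Sc5d. It was 5.88 times for Insig1, 5.17 times for Pmvk and 5.04 times for Msmo1. For the low gene Scd1 it was 0.0628 times, for Fasn 0.169 times and for Srebf2 0.297 times. Acaca had 0.323 times, Abca1 0.326 times and Scap 0.37 times. The log2 difference between batch 4 and batches 1 to 3 was close in both hosts for Lbr (5.32 in NOD, 5.06 in B16A) and Fasn (-2.42 and -2.61). It was less close for Scap (-1.87 and -1.06), Abcg1 (4.15 and 3.39) and Sc5d (3.06 and 3.72). Its sign differed between hosts for Dhcr7 (0.16 and -1.66), Elovl6 (-0.62 and 0.70) and Fads1 (-1.46 and 0.45), among others. Fewer cells of a type and less RNA per cell cannot be told apart in such bulk samples.

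Transcript length moved with the difference between hosts among the members. Sterol enzymes had a median longest transcript of 2786.5 bases and tested fatty acid enzymes one of 4832 bases. Across the 34 tested members the log2 fold change and the log2 length had a Pearson r of -0.52 and a Spearman rho of -0.56, against -0.09 and -0.15 across 13706 matched genes. These correlations run across genes that share the same 8 libraries and are given as a description. When each library's trend over length was removed, the sterol median was 0.31 with 15 of 18 positive and the fatty acid median -0.04. That trend was fitted over all matched genes, where the relation was weak, so its removal could not take out the stronger relation among the members. The part of length in the difference between the arms was not tested. GC content moved little with the fold change across members (r = -0.02).

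**Figure D4:**
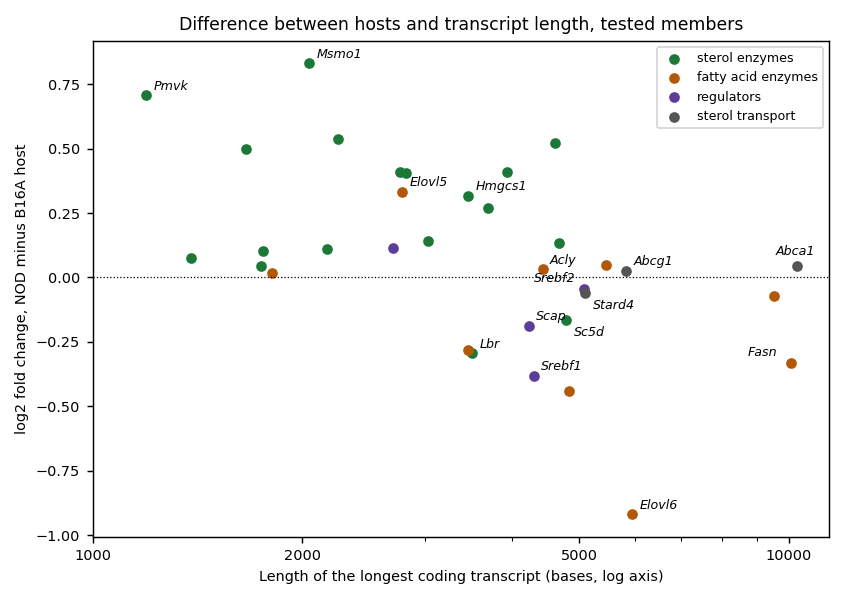
Log2 fold change of NOD over B16A hosts against the length of the longest coding transcript (log axis) for the 34 tested members, coloured by group, with the members described in full named. Points have no error bars, and the standard errors run from 0.14 to 0.68. The short transcripts of Pmvk and Msmo1 lie above 0 and the long ones of Elovl6 and Fasn below it, but the longest, Abca1 (0.05), and the long Abcg1 (0.03) and Scd2 (0.05) lie slightly above.

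Further genes of the same pathways were read beside the members. All 19 other sterol genes were tested. None passed over all genes (0% called), 8 were positive and 11 negative, and the median was -0.02. Without batch 4 their median was 0.07 with 12 of 19 positive, beside 0.12 and 11 of 18 for the sterol enzymes. Npc2, which hands cholesterol out of lysosomes, had the smallest p: it stood at 624, 347, 803 and 1663 CPM in NOD and at 556, 286, 512 and 1041 CPM in B16A libraries. Its NOD value was higher in each batch, with a fold change of 0.44 (SE 0.14, with edgeR at unadjusted p = 0.00646, adjusted p = 0.725). Without batch 4 the fold change of Npc2 was 0.37. Mylip, a ubiquitin ligase whose gene is an LXR target, stood at 111, 81.5, 89.6 and 85.1 CPM and at 109, 134, 110 and 110.2 CPM, with -0.34 (0.15).

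Of 27 other fatty acid genes 19 were tested, none passed, 8 were positive and 11 negative, and the median was -0.01. Cpt1a, which admits fatty acids to mitochondria for oxidation, stood at 66.4, 42.4, 29.9 and 19.0 CPM in NOD and at 41.3, 54.1, 55.0 and 56.4 CPM in B16A libraries. It was lower in the NOD library in batches 2 to 4 and higher in batch 1, with a fold change of -0.54 (standard error 0.29) that was -0.17 without batch 4 and -0.95 without batch 1. Scd3, a further desaturase at 0.179 to 8.43 CPM, had -1.004 (0.515) and was lower in the NOD library of every batch.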

How the data were processed

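The authors deposited 1 table of raw read counts per gene, whole numbers that are not normalized. Per the labels' protocols, cDNA was made with SeqPlex RNA amplification and read 50 bases from a single end. The submitters' processing notes name STAR, HTSeq, DESeq2 and mm10. Which annotation was used, and whether counting heeded strand, is not given in the sources used here. Reads could therefore be split between near-identical genes or shared with an antisense partner. Exact 50-base windows of each member's longest coding transcript were searched in all GENCODE vM21 transcripts: 5 members share over 10% on the same strand, 5 on the opposite strand, and 17 share none.

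Groups come from the sample titles. The whole table was fitted with edgeR 4.0.16 in R 4.3.3 (filterByExpr, TMM, robust quasi-likelihood) with host and batch as terms, which leaves 3 residual degrees of freedom per gene, and p-values were adjusted by Benjamini-Hochberg over all 14607 tested genes. Standard errors were derived from the F statistic. Within-batch ratios use log2 CPM with a prior count of 2. The labels call the shared number a batch, so it pairs the libraries. Deviations from the host means correlated across genes at r = 0.625, 0.702, 0.611 and 0.906 between partners of batches 1 to 4, with 1 higher value outside a batch, NOD of batch 2 with B16A of batch 3 (r = 0.741). No 2 libraries of a host agreed within sampling noise (chi-square per degree of freedom of at least 7.88). Members and lists were chosen with earlier results of these data known. Named with all 8 values were members with an adjusted p under 0.05, those with 1 direction in all 4 batches whose mean reached 4 CPM, and the 2 with the smallest p and the 2 with the highest mean of each group. Of the further pathway genes, the 2 of each side with the smallest p were named. Others, such as Dhcr7 and Fads1, were picked after their values were seen. Alternatives were another normalization, filter, test (DESeq2 1.42.0, limma 3.58.1), batches left out and, added after the data were seen, trends over GC content and length removed. Of the tested genes 93.8% matched GENCODE by symbol.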

Additional observations from a re-analysis of the deposited data

Results flagged for a closer look

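In groups of 4 libraries, a value counts as standing apart here when its gap to the nearest other, divided by the range of the group, exceeds Dixon's 95% critical value, which chance gives in about 1 of 20 groups. Of 38 groups tested on the log2 CPM scale 10 passed, and in all 10 the value was that of the batch 4 library. The groups share libraries and genes, and the share of groups passing over all genes was not computed. Among all tested genes both batch 4 libraries lay above all 6 others for 31.8% and below for 40.4%. Values of batch 4 that stand apart are therefore not particular to the members. The mean over the sterol enzymes in NOD hosts was among the groups that passed (0.97). Single members that stood apart as the highest were Lbr (0.907 in NOD and 0.986 in B16A hosts), Abcg1 (0.875 and 0.964) and Sc5d (0.861 and 0.877), and, in NOD hosts, Pmvk (0.853) and Msmo1 (0.831). Srebf2 stood apart as the lowest in NOD hosts (0.882).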

How the results depend on the processing

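No member was called under any of the 15 settings, although the DESeq2 test gave many members no adjusted p and so could not call them. The number of genes called over the whole table was 0 in the fit with the batch term and ranged from 0 to 32 when a batch was left out, with 32 without batch 4, and it was 27 with the DESeq2 test and 14 without a filter on low counts. Without the batch block edgeR called 0 genes, the sterol median was 0.27 with 16 of 18 positive and the fatty acid median -0.17, so the pairing changed no call. The sterol median ranged from 0.12 to 0.37 over all settings, the fatty acid median from -0.17 to -0.01, the regulator median from -0.24 to 0.02 and the transport median from -0.17 to 0.19. Named genes changed sign in 17 refits and kept it in 249, and in none of the 17 was either value called. Leaving out a batch moved Sc5d to between -0.33 and 0.044, Acly to between -0.048 and 0.095, Srebf2 to between -0.19 and 0.013, Scap to between -0.37 and 0.020, Stard4 to between -0.30 and 0.034, Abca1 to between -0.19 and 0.34 and Abcg1 to between -0.17 and 0.19. With batch 4 left out and no block Sc5d was 0.044, Srebf2 0.0026, Scap 0.015 and Abcg1 -0.15. Srebf2 was 0.0014 with the GC trend and 0.0042 with the length trend removed, and Stard4 was 0.056 in limma voom. The cause of these changes was not tested. Counts of 4 to 52 for Idi1 and 0 to 55 for Fads2 and Scd1 limit what can be read for these genes.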
